A study of Homo sapiens with 24 samples.

Results

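Interferon-stimulated genes are described here in A549 and Huh7 cells, with each of the 3 herb extracts whose treated cells were sequenced. The members were a list of 38 symbols, which stand for 37 genes because DDX58 is the older symbol of RIGI, and their Ensembl identifiers were looked up in the deposited count table. The table held 27 of the 37 genes among its 14585 genes. IFI27, IFI44, IFI44L, IFITM1, IRF7, DHX58, BST2, PSMB9, HLA-B and HLA-C were not analysed here. A member was tested in a line only where its mean exceeded 5 counts over the 12 libraries of that line, which left 25 members in A549, 25 in Huh7 and 23 in both. MX2 and RSAD2 were not tested in A549, and IFITM2 and TAP1 were not tested in Huh7.

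Type I and type III interferons bind receptors at the cell surface, and the receptor kinases phosphorylate STAT2. It joins IRF9 in a complex that binds the interferon-stimulated response element in front of its target genes. Interferon gamma acts at gamma-activated sites, and one of its classic targets is IRF1, itself a transcription factor. The targets include sensors of foreign RNA such as RIGI and IFIH1, effectors that block virus growth such as the OAS, IFIT, IFITM and Mx proteins, and the machinery of antigen presentation such as TAP1 and B2M. Many of these genes also have a basal level in tumour cells that were given no interferon.

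A549 is a lung carcinoma line and Huh7 a hepatocellular carcinoma line, both labelled WT for genotype. The paper describes p53 as wild-type in A549 and mutant in Huh7. Each line had 3 control libraries and 3 libraries for each of the herbal extracts, namely P. chinensis, P. umbellatus and B. chinense, 24 libraries in all. Neither the dose and duration for the sequenced cells nor what the control cells received is given in the sources used here. Nothing says whether the replicates were separate cultures, so the p-values measure only the spread between these samples, which may be technical. Total counts ran from 6803704 to 24345541 per library. In Huh7 the controls held 16455709 to 24345541 counts, and the B. chinense and P. umbellatus libraries 7182444 to 11546100, a difference whose part in the results was not tested. Levels are given as CPM (counts scaled to a common library size) after TMM normalization over the 24 libraries. The identity of the lines was read from marker genes in the control libraries. ALB, the hepatocyte product albumin, had 96538, 76423 and 112188 counts in Huh7 and 1, 0 and 0 in A549, while the keratin KRT7 had 13243, 16710 and 17734 counts in A549 and 0 in all Huh7 controls. The lung carcinoma markers NAPSA and NKX2-1 were not in the table, and KRT8, KRT18, EPCAM and SFTPB are not given here. Of the leukocyte markers, PTPRC had 10 to 69 counts per control library, and LYZ reached 14182, 11384 and 17835 counts in Huh7 controls. Replicate 2 of P. umbellatus in Huh7 stood apart: its pairs differed by 13.3 and 17.6 times the sampling variance, against 2.74 to 5.36 for the 22 pairs without it. The values of the members called after P. umbellatus in Huh7, and their differences from A549, are also given without it. The pathway genes were not refitted without it.

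The control libraries were compared between the lines first, as the base from which each herb response starts. In the quasi-likelihood test of edgeR, with p-values adjusted over all 14585 genes by Benjamini-Hochberg, 10 members were higher in A549 and 7 higher in Huh7, and 10 did not pass. Of all genes, 70.7% passed in this comparison, 33.9% higher in A549 and 36.8% higher in Huh7. Of the OAS enzymes, which make the 2'-5' oligoadenylates that activate RNase L, OAS1 and OAS3 differed between the lines by several fold. OAS2 did not pass, at 2.99, 2.26 and 1.44 CPM in A549 and 2.58, 2.73 and 2.39 CPM in Huh7. OAS1 stood at 55.5, 52.6 and 57.1 CPM in A549 and 6.27, 5.78 and 5.58 CPM in Huh7, a log2 difference of 3.23 ± 0.15 (SE; edgeR adjusted p = 2.05e-14). OAS3, its neighbour on chromosome 12, stood at 141, 146 and 161 CPM against 16.4, 17.8 and 19.3 CPM, a log2 difference of 3.06 ± 0.14 (edgeR adjusted p = 1.25e-14). The groups did not overlap in either gene. OASL, a member of the same family without the enzyme activity, ran the other way, with a log2 difference of -1.62 ± 0.30 (edgeR adjusted p = 4.62e-05).

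MX2, a GTPase that restricts retroviruses, had 0 counts in all 12 A549 libraries. In Huh7 controls it had 1547, 1204 and 1723 counts, or 78.2, 74.8 and 72.3 CPM, which was at least 201-fold higher than in A549, taking 3 counts per library as the limit there. MX1, next to it on chromosome 21, was low in both lines, with 8, 5 and 7 counts in A549 controls and 9, 5 and 14 in Huh7 controls. TAP1, a subunit of the peptide transporter that feeds class I molecules, was the reverse of MX2. It stood at 11.1, 21.7 and 33.4 CPM in the A549 controls, a wide spread, while the Huh7 controls held 0, 0 and 1 counts, so that it was at least 118-fold higher in A549. TAP1 lies in the major histocompatibility complex, whose alternative haplotypes are also in the Ensembl transcripts, and how reads shared between copies were assigned is not stated.

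The other members higher in A549 controls were IFIH1 (log2 difference 2.16), IFIT5 (1.99), IFITM2 (3.07), IRF9 (1.42), IFI6 (1.38), ISG20 (0.97) and IRF1 (0.90). The IFITM2 value turns on Huh7 control replicate 1, since the Huh7 controls held 11, 0 and 1 counts, and was 5.66 without it, a fitted value that is no bound because the other controls held almost no reads. Those higher in Huh7 controls also included IFITM3 (-2.75), ISG15 (-1.52), STAT2 (-0.99), XAF1 (-0.59) and B2M (-0.58). The ISG15 value was -2.15 without A549 control replicate 2. IFITM2 and IFITM3, membrane proteins that hinder virus entry, had opposite signs, and their near-identical transcripts make the split of reads between them uncertain. Per kilobase of transcript, B2M had the highest level of all members in both lines, at 160 ± 7.89 CPM per kilobase in A549 and 239 ± 6.04 in Huh7 (SD, n = 3). OAS1 came second in A549, at 33.8 ± 1.39 CPM per kilobase, and MX2 second in Huh7, at 22.0 ± 0.871 CPM per kilobase. RSAD2, an enzyme that makes a chain-terminating nucleotide, had 0.0746 ± 0.0303 CPM per kilobase in A549 and 0.181 ± 0.0825 in Huh7.

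**Figure D1:**
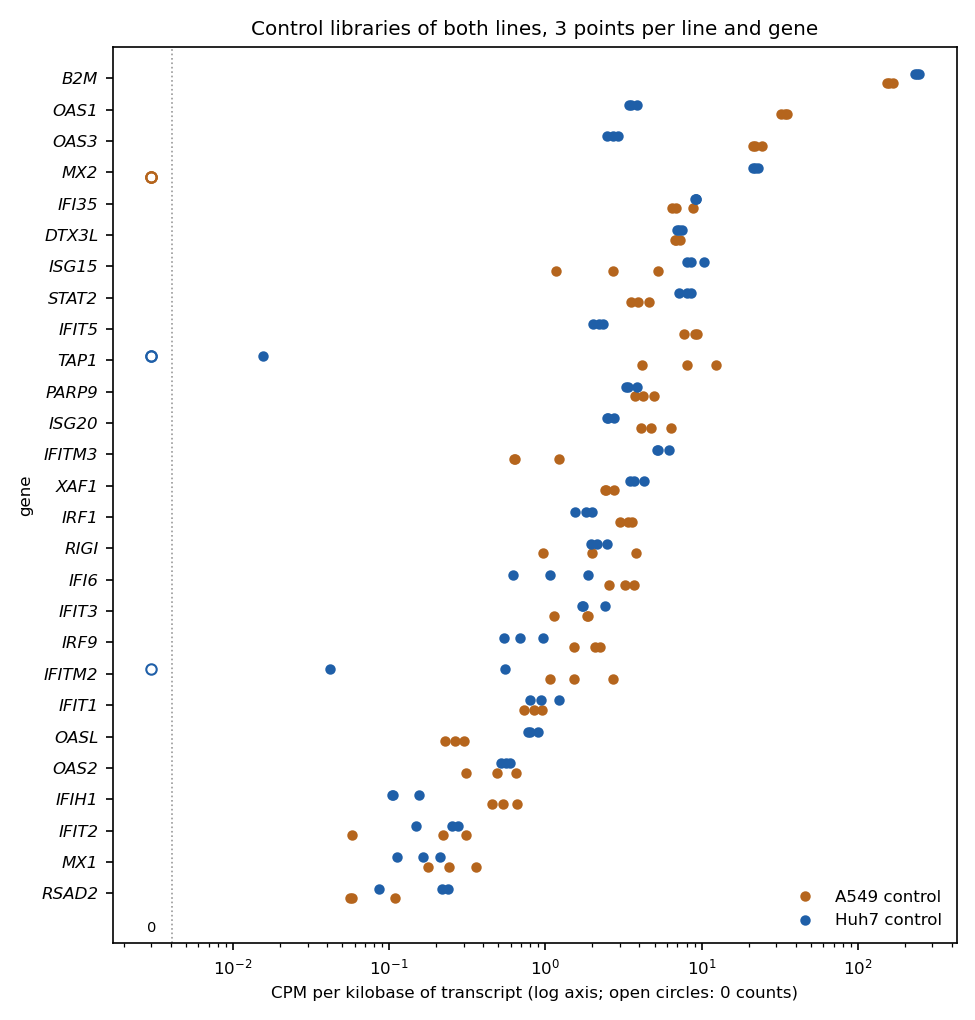
Level of each of the 27 members in the 3 control libraries of each line, in CPM per kilobase of transcript on a log axis; each point is a library and open circles at the left mark 0 counts. OAS1 and OAS3 lie further right in A549, IFITM3, ISG15 and STAT2 further right in Huh7, and MX2 and TAP1 are each at or near 0 in one line.

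In A549, more members rose than fell with each herb. P. chinensis treatment up-regulated 7 and down-regulated 2 of the 25 members tested, B. chinense 8 and 3, and P. umbellatus 7 and 3. Up-regulated with all extracts were IRF1, TAP1, B2M, IFIH1, IFIT2 and DTX3L, and down-regulated with all were OAS1 and OAS3. The 3 comparisons share their control libraries, so these lists are not independent of each other. Over all 13634 genes tested, 32.8% passed after P. chinensis (15.7% higher, 17.1% lower), 28.1% after B. chinense (13.1% higher, 15% lower) and 28.2% after P. umbellatus (13.4% higher, 14.8% lower). The members passed at 36%, 44% and 40%, which for P. chinensis is close to the share of all genes. The median log2 fold change of the members was 0.41, 0.44 and 0.38 with the extracts in that order, while that of all genes lay between -0.01 and 0.01.

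**Figure D2:**
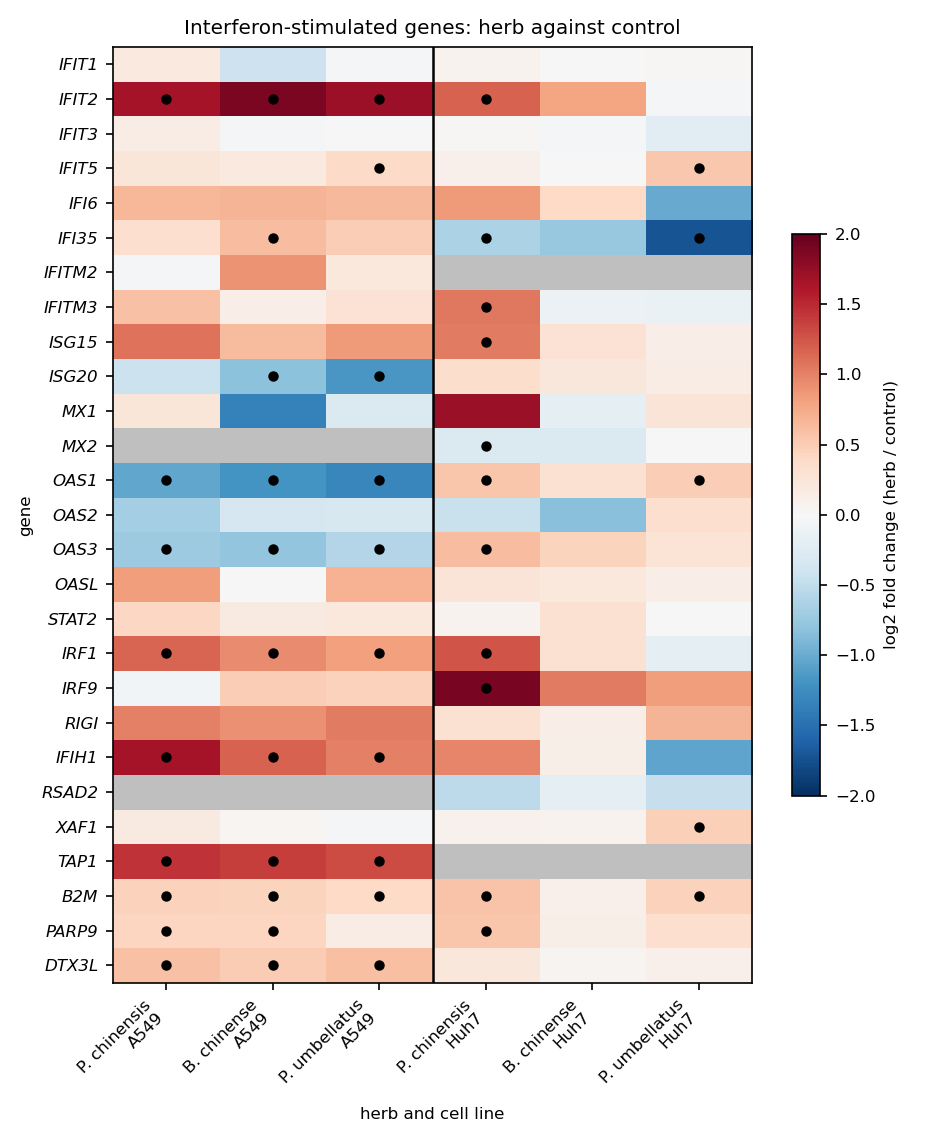
Log2 fold change against control for the 27 members (rows) with each herb in A549 and Huh7 (columns), coloured from blue (lower) to red (higher); dots mark members with an adjusted p under 0.05 and grey cells were not tested. OAS1, OAS3 and ISG20 are blue in A549 and not in Huh7, IFI35 is blue in Huh7 only, and the B. chinense column of Huh7 has no dot.

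The genes called in the most herb comparisons were OAS1 and B2M, in 5 of 6 each, and OAS3, IRF1 and IFIT2, in 4 each, and the promoters of those with an entry in the RefSeq table (GRCh38.p14) are shown because some of these genes rose in A549 and others fell. IFIT2 had no entry. Each is the 250 bases before the RefSeq start of the gene, 5′ to 3′ on its own strand, and it overlaps the gene spans given below, wholly for OAS1, OAS3 and IRF1 and in part for B2M, because those spans take in every annotated transcript. Capitals mark matches to the core of the interferon-stimulated response element, which is GAAA, any 2 bases and GAAA again, searched on both strands, or to the gamma-activated site, TTCNNNGAA, which reads the same on both strands.
OAS1, plus strand, chr12:112906712-112906961: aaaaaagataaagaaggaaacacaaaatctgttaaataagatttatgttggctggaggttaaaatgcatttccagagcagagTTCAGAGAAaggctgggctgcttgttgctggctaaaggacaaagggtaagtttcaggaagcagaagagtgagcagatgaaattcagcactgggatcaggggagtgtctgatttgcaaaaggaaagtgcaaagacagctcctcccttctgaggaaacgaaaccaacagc
OAS3, plus strand, chr12:112938224-112938473: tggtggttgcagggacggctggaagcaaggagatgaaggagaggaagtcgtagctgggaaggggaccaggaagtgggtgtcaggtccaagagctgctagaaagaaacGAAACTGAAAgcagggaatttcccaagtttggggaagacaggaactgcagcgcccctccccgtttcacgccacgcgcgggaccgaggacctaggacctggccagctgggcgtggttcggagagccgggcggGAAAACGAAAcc
IRF1, minus strand, chr5:132490774-132491023: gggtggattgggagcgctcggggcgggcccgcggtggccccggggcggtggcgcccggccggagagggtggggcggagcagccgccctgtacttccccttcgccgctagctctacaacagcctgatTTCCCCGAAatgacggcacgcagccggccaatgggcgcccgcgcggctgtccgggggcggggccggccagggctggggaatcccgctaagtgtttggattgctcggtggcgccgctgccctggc
B2M, plus strand, chr15:44711267-44711516: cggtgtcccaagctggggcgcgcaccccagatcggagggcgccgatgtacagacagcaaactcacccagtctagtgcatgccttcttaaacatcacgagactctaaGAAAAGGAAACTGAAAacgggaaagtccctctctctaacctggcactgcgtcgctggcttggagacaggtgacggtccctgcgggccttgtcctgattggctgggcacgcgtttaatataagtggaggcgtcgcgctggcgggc

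OAS3 and B2M each held 2 matches to the response element core, which overlap in B2M, and OAS1 and IRF1 each held 1 match to the gamma-activated site. Only a gap of 2 bases was searched for the core. Near its end the OAS1 sequence holds gaaacgaaa, with a gap of 1 base, which is not marked. The lack of a match in OAS1 therefore does not show that it lacks the element. Of the 22 members with a promoter in the table, 11 held the response element core, against 3.07% of 27305 promoters of the same length, and 4 held the gamma-activated site, against 6.78%. OAS3, which fell in A549, and B2M, which rose, both held the response element core, and OAS1, which fell, and IRF1, which rose, both held the gamma-activated site. A match is a run of letters and not a measured binding site.

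OAS1 (chr12:112905856-112933219, GRCh38, plus strand) stood at 55.5, 52.6 and 57.1 CPM in the A549 controls. It stood at 25.2, 33.4 and 23.3 CPM after P. chinensis, 24.6, 22.4 and 27.6 CPM after B. chinense and 21.9, 25.8 and 22.1 CPM after P. umbellatus. Every treated library lay below every control library. The log2 fold changes were -1.04 ± 0.13, -1.19 ± 0.13 and -1.31 ± 0.13 (SE), that is 2.06, 2.28 and 2.47-fold lower, with edgeR adjusted p = 1.71e-05, 9.22e-06 and 3.04e-06. OAS3 (chr12:112938051-112976460, plus strand), 4831 bases further along, fell from 141, 146 and 161 CPM in the controls to 102, 101 and 72.4 CPM after P. chinensis. It was 96.6, 86.1 and 83.0 CPM after B. chinense and 114, 90.8 and 106 CPM after P. umbellatus, again without overlap with the controls. Its log2 fold changes were -0.73 ± 0.11, -0.79 ± 0.11 and -0.59 ± 0.11 (edgeR adjusted p = 0.000171, 0.000136 and 0.00123). ISG20, an exonuclease that degrades viral RNA, had 7.47, 10.1 and 6.45 CPM in the controls. After B. chinense it had 4.54, 4.41 and 5.01 CPM and after P. umbellatus 4.14, 2.49 and 4.58 CPM, log2 fold changes of -0.82 ± 0.26 and -1.16 ± 0.26 (edgeR adjusted p = 0.0278 and 0.00343). After P. chinensis the value was -0.44 ± 0.25 and did not pass (edgeR adjusted p = 0.206). The B. chinense call was lost in 3 of the 12 fits that each left out 1 library, where the log2 fold change ran from -0.96 to -0.62.

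IRF1 (chr5:132440440-132508719, minus strand) was up-regulated with each herb in A549. Its level was 12.8, 11.97 and 10.7 CPM in the controls, 23.8, 28.1 and 28.7 CPM after P. chinensis, 20.9, 22.8 and 26.8 CPM after B. chinense and 20.9, 21.3 and 23.4 CPM after P. umbellatus. The lowest treated library lay above the highest control. Log2 fold changes were 1.16 ± 0.13, 0.95 ± 0.14 and 0.83 ± 0.13 (edgeR adjusted p = 1.14e-05, 0.000114 and 0.000333). STAT2 and IRF9, subunits of the interferon complex, did not pass with any herb in A549, with log2 fold changes of 0.41, 0.18 and 0.21 for STAT2 and -0.05, 0.50 and 0.46 for IRF9.

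Both antigen presentation genes in the table rose in A549. TAP1 (chr6:32845209-32853816, minus strand) went from 11.1, 21.7 and 33.4 CPM in the controls to 69.9, 58.4 and 59.4 CPM after P. chinensis, 58.4, 60.2 and 60.5 CPM after B. chinense and 56.5, 56.1 and 60.3 CPM after P. umbellatus. The treated libraries lay close together and the controls far apart. Log2 fold changes were 1.45 ± 0.23, 1.38 ± 0.23 and 1.30 ± 0.23 (edgeR adjusted p = 0.000202, 0.000445 and 0.000628), and over the fits without 1 library the P. chinensis value ran from 1.16, without control replicate 1, to 1.87, without control replicate 3. B2M (chr15:44711358-44718851, plus strand), the light chain of class I molecules, moved less but evenly. It had 150, 159 and 144 CPM in the controls, 208, 207 and 224 CPM after P. chinensis, 221, 208 and 207 CPM after B. chinense and 201, 224 and 200 CPM after P. umbellatus. These are log2 fold changes of 0.47 ± 0.06, 0.45 ± 0.06 and 0.40 ± 0.06 (edgeR adjusted p = 2.50e-05, 5.17e-05 and 0.000124), with no overlap between treated and control libraries.

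**Figure D3:**
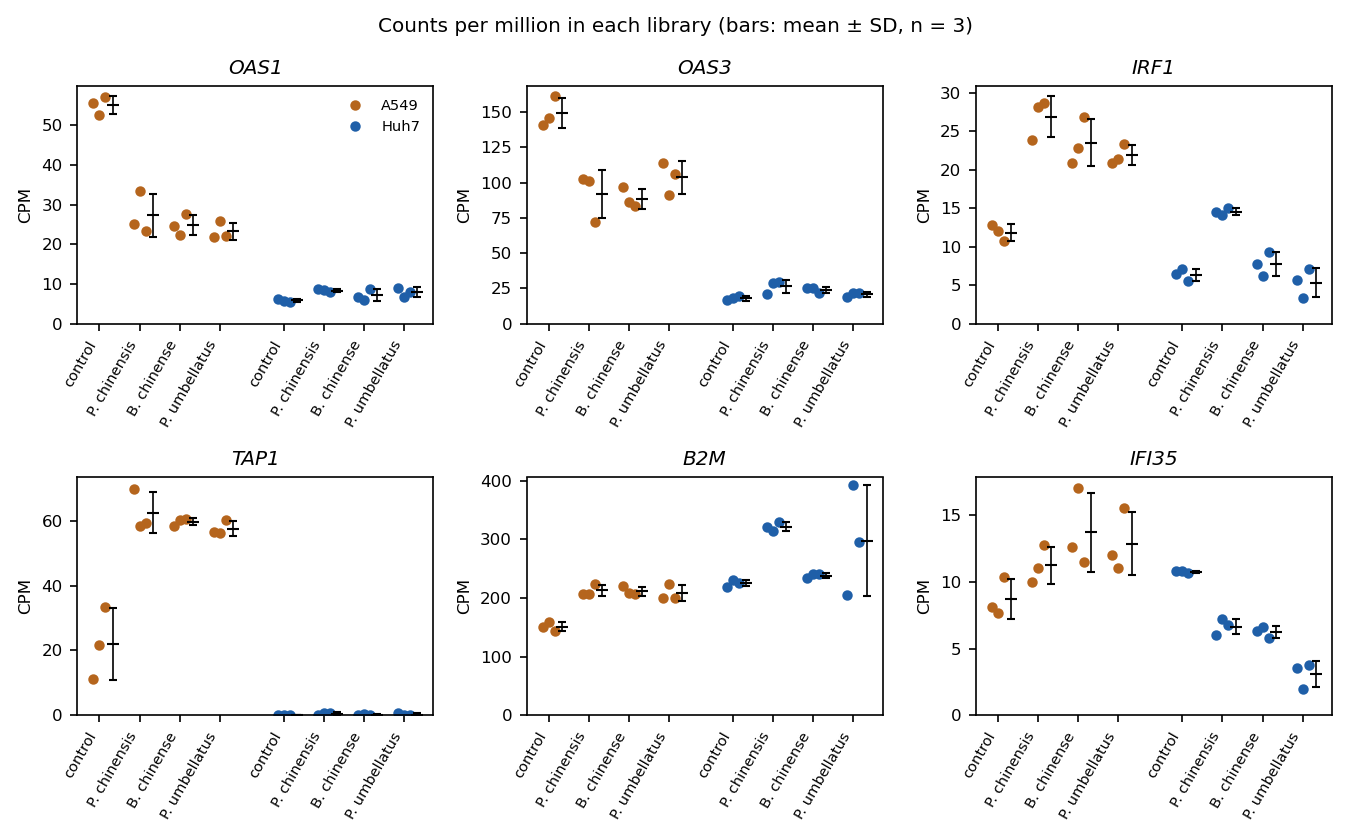
CPM of OAS1, OAS3, IRF1, TAP1, B2M and IFI35 in each library, by herb and line (A549 brown, Huh7 blue), with the mean and SD of the 3 replicates as black bars and each axis starting at 0. OAS1 and OAS3 are highest in the A549 controls, IRF1, TAP1 and B2M are lowest in the A549 controls among A549 groups, and IFI35 is highest in the Huh7 controls among Huh7 groups; P. umbellatus replicate 2 has the highest B2M value in Huh7.

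Of the cytosolic RNA sensors, IFIH1 (MDA5, which binds long double-stranded RNA) rose with each herb in A549. It had 1.62, 2.36 and 1.92 CPM in the controls, 5.84, 7.14 and 6.32 CPM after P. chinensis, 3.40, 4.41 and 6.05 CPM after B. chinense and 3.77, 4.98 and 3.82 CPM after P. umbellatus. Log2 fold changes were 1.67 ± 0.28, 1.17 ± 0.28 and 1.01 ± 0.28 (edgeR adjusted p = 0.000314, 0.00642 and 0.0140). Without P. umbellatus replicate 2, the P. umbellatus value was 0.87 and did not pass (edgeR adjusted p = 0.0591). RIGI, which binds short RNA with a triphosphate end, had 4.48, 17.7 and 9.14 CPM in the controls and 17.9, 29.1 and 18.1 CPM after P. chinensis, 29.6, 13.8 and 17.7 CPM after B. chinense and 16.1, 23.8 and 28.6 CPM after P. umbellatus. The log2 fold changes of 1.01 ± 0.39, 0.91 ± 0.40 and 1.04 ± 0.39 did not pass (edgeR adjusted p = 0.0630, 0.106 and 0.0624). These values turned on single libraries. Without control replicate 2, the highest control, they were 1.61, 1.51 and 1.64, with edgeR adjusted p = 0.00721, 0.0131 and 0.00771. Without control replicate 1 the P. chinensis value was 0.67, and without B. chinense replicate 1 the B. chinense value was 0.54. Neither passed.

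Of the IFIT proteins, IFIT1 binds viral RNA that lacks the host's cap methylation. IFIT2 rose with each herb in A549 from very few reads, with 6, 2 and 11 counts in the controls against 20, 21 and 22 after P. chinensis, 27, 20 and 16 after B. chinense and 43, 26 and 13 after P. umbellatus. Log2 fold changes were 1.67 ± 0.46, 1.88 ± 0.46 and 1.71 ± 0.45 (edgeR adjusted p = 0.0115, 0.00664 and 0.0109). IFIT5 passed after P. umbellatus alone, at 44.3, 47.2 and 51.5 CPM against 31.1, 36.3 and 37.3 CPM in the controls, a log2 fold change of 0.38 ± 0.10 (edgeR adjusted p = 0.0103). IFIT1 and IFIT3 had between 17 and 78 counts per A549 library and did not pass with any herb, with log2 fold changes from -0.42 to 0.19 for IFIT1 and from -0.02 to 0.14 for IFIT3.

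DTX3L, a ubiquitin ligase, and PARP9, its partner that recognizes ADP-ribose, start next to each other on opposite strands of chromosome 3 and overlap there, so reads from the shared stretch cannot be assigned with certainty. DTX3L had 39.0, 39.7 and 42.1 CPM in the A549 controls, 67.6, 62.8 and 55.7 CPM after P. chinensis, 62.5, 53.2 and 61.7 CPM after B. chinense and 63.7, 65.5 and 63.1 CPM after P. umbellatus. It rose by 0.59, 0.52 and 0.61 on the log2 scale (edgeR adjusted p = 7.79e-05, 0.000380 and 7.47e-05). PARP9 rose by 0.43 ± 0.14 after P. chinensis and 0.44 ± 0.15 after B. chinense (edgeR adjusted p = 0.0327 and 0.0369), with libraries of 18.4, 18.0 and 17.8 CPM and 19.1, 20.6 and 14.7 CPM against 15.1, 12.9 and 11.5 CPM in the controls. The B. chinense libraries of PARP9 overlapped the controls, and its calls were lost in 5 and 4 of the 12 fits without 1 library. After P. umbellatus, PARP9 had a log2 fold change of 0.14 ± 0.14 (edgeR adjusted p = 0.521).

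IFI35, a leucine zipper protein that binds NMI, passed in A549 after B. chinense only, at 12.6, 17.1 and 11.5 CPM against 8.09, 7.66 and 10.4 CPM in the controls. Its log2 fold changes were 0.34 ± 0.20, 0.62 ± 0.20 and 0.49 ± 0.20 with the extracts in the same order (edgeR adjusted p = 0.224, 0.0334 and 0.0852). The B. chinense call was lost in 3 of the 12 fits without 1 library, with a value of 0.43 without B. chinense replicate 2 (edgeR adjusted p = 0.169). The remaining 12 members tested in A549, namely IFIT1, IFIT3, IFI6, IFITM2, IFITM3, ISG15, MX1, OAS2, OASL, STAT2, IRF9 and XAF1, passed with no herb, nor did RIGI. Of these 12, 10 had a mean under 50 counts. ISG15, the ubiquitin-like modifier often used as an interferon marker, had 6, 34 and 18 counts in the controls and 44, 48 and 30 after P. chinensis, a log2 fold change of 1.08 ± 0.50 (edgeR adjusted p = 0.115). Without control replicate 2, that value was 1.71 and passed (edgeR adjusted p = 0.0334). Without control replicate 1 it was 0.73 and did not pass.

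When P. chinensis was set against the mean of the other herbs in A549, 0 of 25 members passed in edgeR's quasi-likelihood test, against 3.57% of all genes (1.15% higher, 2.42% lower). At an unadjusted p under 0.05 there were 4 members, 3 higher and 1 lower after P. chinensis. The share of all genes at that unadjusted threshold was not counted. DESeq2 and voom also gave 0 members after adjustment. The log2 differences of OAS1 and OAS3 were 0.20 ± 0.11 and -0.05 ± 0.10, and those of IRF1 and TAP1 were 0.27 ± 0.11 and 0.11 ± 0.18.

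In Huh7, P. chinensis changed 11 of the 25 members, P. umbellatus 5 and B. chinense 0. P. chinensis up-regulated 9 and down-regulated 2, or 44%, while 20.9% of all 13876 genes passed (10.4% higher, 10.5% lower). The up-regulated members were IRF9, IRF1, IFIT2, IFITM3, ISG15, OAS3, B2M, OAS1 and PARP9, and the down-regulated ones IFI35 and MX2. The median log2 fold change of the members was 0.34, against 0.01 for all genes. None of the 11 had overlapping treated and control libraries, but the share of all called genes without overlap was not counted. The count was not stable to single libraries: without control replicate 2, 5 members rose, and without control replicate 1, 0 fell. Calls over all genes dropped too, from 1450 higher to 911 in the former fit and from 1451 lower to 956 in the latter.

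Both transcription factors with a call rose. IRF9, the DNA-binding subunit of the interferon complex, had 1.57, 1.12 and 0.881 CPM in the controls and 4.39, 4.84 and 3.44 CPM after P. chinensis, a log2 fold change of 1.89 ± 0.32 (SE; 3.71-fold, edgeR adjusted p = 0.00141). IRF1 had 6.47, 7.08 and 5.49 CPM in the controls and 14.5, 14.2 and 15.1 CPM after P. chinensis, a log2 fold change of 1.26 ± 0.21 (2.39-fold, edgeR adjusted p = 0.00132). STAT2 had a log2 fold change of 0.07 ± 0.10 and did not pass. Among the effectors, ISG15 went from 5.15, 6.59 and 5.41 CPM to 10.8, 11.6 and 11.3 CPM after P. chinensis in Huh7. That is a log2 fold change of 1.04 ± 0.22 (edgeR adjusted p = 0.00608). IFITM3 went from 3.79, 3.17 and 3.19 CPM to 6.83, 7.72 and 5.74 CPM, a log2 fold change of 1.06 ± 0.19 (edgeR adjusted p = 0.00199), with the reservation on its paralogs given above. For both genes each treated library was well clear of the highest control.

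OAS1 and OAS3 rose after P. chinensis in Huh7. OAS1 had 6.27, 5.78 and 5.58 CPM in the controls and 8.62, 8.37 and 7.96 CPM after P. chinensis, a log2 fold change of 0.56 ± 0.17 (edgeR adjusted p = 0.0324), a call lost in 6 of the 12 fits without 1 library. OAS3 had 16.4, 17.8 and 19.3 CPM and 21.3, 29.1 and 29.2 CPM, a log2 fold change of 0.62 ± 0.14 (edgeR adjusted p = 0.00719), which passed in all 12. B2M had 220, 231 and 227 CPM and 322, 314 and 330 CPM, a log2 fold change of 0.57 ± 0.16 (edgeR adjusted p = 0.0246), lost in 6 of 12. PARP9 had 10.3, 9.94 and 11.8 CPM and 15.3, 15.5 and 14.6 CPM, a log2 fold change of 0.56 ± 0.13 (edgeR adjusted p = 0.00875). IFIT2, with 17, 15 and 12 counts in the controls and 46, 29 and 28 after P. chinensis, had a log2 fold change of 1.18 ± 0.38 (edgeR adjusted p = 0.0477), lost in 10 of 12.

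The members that fell after P. chinensis in Huh7 were IFI35 and MX2. IFI35 (chr17:43006740-43014456, plus strand) had 10.8, 10.8 and 10.7 CPM in the controls and 6.02, 7.18 and 6.74 CPM after P. chinensis, a log2 fold change of -0.64 ± 0.18 (edgeR adjusted p = 0.0253), lost in 6 of the 12 fits without 1 library. MX2 (chr21:41361999-41409393, plus strand) went from 78.2, 74.8 and 72.3 CPM to 57.7, 55.7 and 63.3 CPM, a log2 fold change of -0.29 ± 0.07 (edgeR adjusted p = 0.0117), which was lost without control replicate 1. MX1 moved the other way on few reads, with 9, 5 and 14 counts in the controls and 44, 30 and 21 after P. chinensis. Its log2 fold change of 1.73 ± 0.68 did not pass (edgeR adjusted p = 0.0949), but did without P. umbellatus replicate 2 (1.73, edgeR adjusted p = 0.0142) and without replicate 3 (edgeR adjusted p = 0.0304). Without P. umbellatus replicate 2, 11 members were up-regulated and 2 down-regulated after P. chinensis. In that fit calls over all genes rose as well, to 2309 higher and 2536 lower of 13875, from 1450 and 1451 of 13876.

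After B. chinense in Huh7, 0 of 25 members passed in either direction in edgeR's quasi-likelihood test, and 1.28% of all genes did (0.519% higher, 0.757% lower). At an unadjusted p under 0.05 there were 3 higher and 3 lower members. The share of all genes at that unadjusted threshold was not counted. DESeq2 called 0 members higher and 2 lower, and 218 higher and 297 lower over all genes. The pair of members that DESeq2 called was IFI35 and MX2. IFI35 had 6.34, 6.64 and 5.77 CPM after B. chinense, all below the controls, a log2 fold change of -0.76 ± 0.19 (edgeR adjusted p = 0.0742). MX2 had 62.7, 59.9 and 58.5 CPM, also below every control, a log2 fold change of -0.30 ± 0.07 (edgeR adjusted p = 0.0742). Both passed without P. umbellatus replicate 2 (-0.76 and -0.30, edgeR adjusted p = 0.00501 and 0.0137), and also without its replicate 3 (edgeR adjusted p = 0.0448 and 0.0455). IRF9, OAS2, OAS3 and STAT2 had log2 fold changes of 1.04, -0.84, 0.44 and 0.30 and did not pass.

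After P. umbellatus in Huh7, 4 members rose and 1 fell, or 20% of the members, against 37% of all genes (19.3% higher, 17.8% lower). The largest change belonged to IFI35, which had 3.52, 1.95 and 3.76 CPM against 10.8, 10.8 and 10.7 CPM in the controls. Its log2 fold change was -1.73 ± 0.20 (3.31-fold lower, edgeR adjusted p = 0.000374), and -1.51 without replicate 2. The groups lay far apart, with 14, 30 and 39 counts in the treated libraries and 174 to 254 in the controls.

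The members that rose after P. umbellatus in Huh7 rose by little. XAF1, which binds the apoptosis inhibitor XIAP, had 12.6, 11.9 and 14.6 CPM in the controls and 17.6, 17.2 and 17.8 CPM after P. umbellatus, a log2 fold change of 0.48 ± 0.12 (edgeR adjusted p = 0.0104). OAS1 had 9.03, 6.67 and 8.10 CPM, a log2 fold change of 0.49 ± 0.17 (edgeR adjusted p = 0.0432). Without replicate 2 these were 0.49 and 0.59 and passed, as did IRF9 (1.07). IFIT5 had 8.14, 9.38 and 8.89 CPM in the controls and 10.1, 16.5 and 10.6 CPM after P. umbellatus, and B2M had 205, 393 and 296 CPM. In both, replicate 2 was the highest treated library, and the lowest B2M library lay below the controls. Their log2 fold changes were 0.54 ± 0.18 and 0.46 ± 0.16 (edgeR adjusted p = 0.0359 and 0.0426), and 0.29 and 0.20 without replicate 2, which did not pass (edgeR adjusted p = 0.139 and 0.144). A fit of the control and P. umbellatus libraries alone called 0 members up-regulated, and the fits without 1 library called between 0 (without control replicate 2) and 5 (without P. umbellatus replicate 1), with 1 or 2 in 9 of the 12. OAS1 kept its call in 2 of these fits and XAF1 in 11. Over all genes, 2674 were higher in the main fit and 513 with only the groups compared. Without control replicate 2 there were 1480, and without P. umbellatus replicate 1 there were 2639.

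Against the mean of the other herbs in Huh7, P. chinensis had 5 of 25 members higher and 0 lower, or 20%, and 21.7% of all genes passed (9.69% higher, 12.1% lower), so the share is near that of all genes. The members were IFITM3 (1.19 ± 0.17), IRF1 (1.19 ± 0.18), IRF9 (0.95 ± 0.27), ISG15 (0.82 ± 0.19) and IFI35 (0.61 ± 0.16), all as log2 differences with SE. For IFI35 a higher level than with the other herbs was a smaller fall below the controls. The edgeR adjusted p-values were 0.000608, 0.00102, 0.0252, 0.0105 and 0.0208. IFITM3 had 6.83, 7.72 and 5.74 CPM after P. chinensis, 3.43, 2.57 and 3.22 CPM after B. chinense and 3.52, 2.64 and 2.70 CPM after P. umbellatus, and the lowest P. chinensis library lay above the highest of the others. The calls of IRF9 and IFI35 were lost in 4 and 2 of the 12 fits without 1 library. Without P. umbellatus replicate 2 the count was 10 and without P. chinensis replicate 2 it was 3. Over all genes, 1955 were higher and 2205 lower in the former fit, and 702 and 1025 in the latter, against 1344 and 1674.

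Whether a herb moved a member differently in the lines was tested as an interaction over all 24 libraries, among the 23 members tested in both. P. chinensis gave 5 members that differed (2 with the higher response in A549), B. chinense 4 (2 higher) and P. umbellatus 8 (5 higher). Among all 12925 genes 19.6% passed for P. chinensis (10.3% higher in A549, 9.3% lower), 11.6% for B. chinense (5.8% and 5.79%) and 34.4% for P. umbellatus (19.1% and 15.3%), against 21.7%, 17.4% and 34.8% of the members, so the members differed about as often as other genes did for P. chinensis and P. umbellatus. OAS1 and OAS3 differed with every herb: both fell in A549, while their log2 fold changes in Huh7 lay between 0.28 and 0.62. The response in A549 minus that in Huh7 was -1.55 ± 0.21 for OAS1 after P. chinensis, -1.46 ± 0.21 after B. chinense and -1.72 ± 0.21 after P. umbellatus (log2, SE; edgeR adjusted p = 1.04e-05, 7.57e-05 and 6.27e-06). For OAS3 it was -1.30 ± 0.19, -1.19 ± 0.19 and -0.78 ± 0.19 (edgeR adjusted p = 2.92e-05, 0.000213 and 0.00393). IFI35 differed with every herb in the opposite sense, by 1.03 ± 0.27, 1.42 ± 0.28 and 2.30 ± 0.29 (edgeR adjusted p = 0.00943, 0.00136 and 7.25e-06). DTX3L did so by 0.42, 0.50 and 0.59 (edgeR adjusted p = 0.0148, 0.00882 and 0.000917). In Huh7, DTX3L stayed between 37.6 and 49.5 CPM in all 12 libraries.

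The other members passed the test of the difference for 1 herb each. IRF9 differed after P. chinensis by -1.89 ± 0.42 (edgeR adjusted p = 0.00272): the A549 libraries had 3.22, 2.85 and 3.35 CPM with the extract and 2.49, 3.63 and 3.37 CPM without. After P. umbellatus, IRF1 differed by 1.07 ± 0.26, IFIT2 by 1.82 ± 0.63, IFI6 by 1.74 ± 0.59 and ISG20 by -1.22 ± 0.34 (edgeR adjusted p = 0.00356, 0.0286, 0.0267 and 0.00778). IRF1 after P. umbellatus in Huh7 was 5.63, 3.33 and 7.04 CPM, which overlapped the controls. The IFIT2 and IFI6 values rest on few reads, with 6, 2 and 11 and 6, 3 and 3 counts in the P. umbellatus libraries of Huh7. Without P. umbellatus replicate 2 of Huh7, the P. umbellatus differences were -1.86 for OAS1, -0.79 for OAS3, 2.04 for IFI35, 0.54 for DTX3L, 0.80 for IRF1 and -1.21 for ISG20, all past the threshold. IFIT2 (1.46) and IFI6 (1.65) did not pass without it (edgeR adjusted p = 0.0784 and 0.0606). IFIH1 did pass without it (3.83, edgeR adjusted p = 0.0136), a fitted value that is no bound. The Huh7 P. umbellatus libraries held 1, 4 and 0 counts of IFIH1, replicate 2 being the 4, against 11, 6 and 9 in the Huh7 controls. B2M, which rose in both lines after P. chinensis, differed between them by -0.05 ± 0.18 (edgeR adjusted p = 0.893), and IRF1 by -0.05 ± 0.24 (edgeR adjusted p = 0.926).

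**Figure D4:**
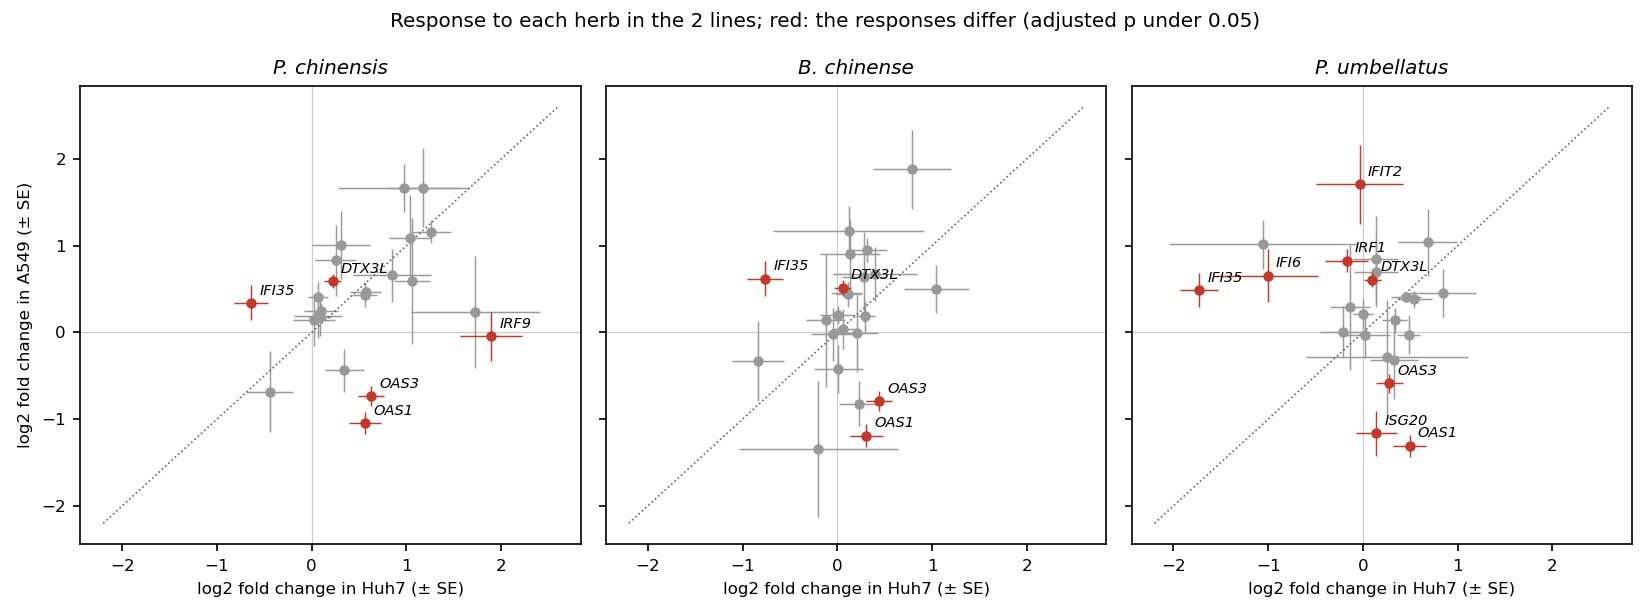
Log2 fold change against control in A549 (vertical) and Huh7 (horizontal) for the 23 members tested in both lines, one panel per herb, with SE bars; red, named points differ between the lines in the interaction test and the dotted line marks equal responses. OAS1 and OAS3 lie in the lower right of every panel and IFI35 in the upper left.

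The rest of the pathway was read from lists that hold no member. Of 64 other interferon-stimulated genes, 57 were in the table. In A549, where 55 were tested, 24 rose and 5 fell after P. chinensis, 26 and 2 after B. chinense, and 22 and 3 after P. umbellatus. NLRC5, the activator of class I genes, rose by 1.41, 1.30 and 1.19, the antiviral factor SAMD9 by 1.24, 1.17 and 1.03, and the helicase HELZ2 by 1.03, 0.97 and 0.99 (log2). These are 52.7%, 50.9% and 45.5% of the list, beside 32.8%, 28.1% and 28.2% of all genes. The median log2 fold change of these genes was 0.43, 0.37 and 0.35. In Huh7, where 50 were tested, 9 rose and 6 fell after P. chinensis, 0 and 1 after B. chinense, and 9 and 7 after P. umbellatus, with medians of 0.17, 0.03 and 0.05. Here the shares were 30%, 2% and 32%, beside 20.9%, 1.28% and 37% of all genes. HELZ2 fell by 1.03 after P. umbellatus in Huh7.

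Genes upstream of the members were counted by role, first in A549. Of 7 ligands and receptors tested, 3, 1 and 2 rose with the extracts in the same order, and 0 fell. IFNE, an interferon of epithelia, rose with each (0.86, 1.03 and 0.59), and the receptor chain IFNAR1 rose after P. chinensis (0.69). Of 13 genes of nucleic acid sensing, 5, 4 and 4 rose and 0 fell, among them IRF5 (1.04, 1.18 and 1.07) and the RIGI ligase TRIM25 (0.33, 0.25 and 0.29). The IRF5 values had an SE of 0.37 each and passed narrowly (edgeR adjusted p = 0.0444, 0.0295 and 0.0454). Its P. umbellatus libraries overlapped the controls. The called shares of the sensing genes, 38.5%, 30.8% and 30.8%, are near those of all genes given above, and lists of 7 genes or fewer are too short for their shares to be read. In Huh7 the receptor kinase JAK1 rose after P. chinensis (0.30), and JAK1 (0.43) and JAK2 (0.56) rose after P. umbellatus. Of 7 feedback inhibitors, which switch off cytokine receptors, 2 rose and 1 fell after P. chinensis in A549, 1 and 1 after B. chinense, and 1 and 0 after P. umbellatus. In Huh7 the suppressors of cytokine signalling moved apart after P. chinensis: SOCS3 had a log2 fold change of 1.80 ± 0.29 and SOCS1 of -1.80 ± 0.26 (edgeR adjusted p = 0.000920 and 0.000413). SOCS1 had 9.85, 12.6 and 15.3 CPM in the controls and 3.76, 3.45 and 3.16 CPM after P. chinensis. After P. umbellatus in Huh7 it had a log2 fold change of -2.16 ± 0.28, and the adaptor MYD88 one of -0.83 ± 0.19 (edgeR adjusted p = 0.000587 and 0.00686). In Huh7, 0, 0 and 1 of 6 ligands and receptors rose with the extracts in the same order and 0, 0 and 1 fell, and of 12 sensing genes 0 rose with any and 1, 0 and 2 fell.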

How the data were processed

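The members and gene lists were chosen with earlier results of these data known. Per the study's methods, ribosomal RNA was removed from total RNA, stranded libraries were sequenced, and the authors estimated counts with kallisto against GRCh38.p13 transcripts. The authors deposited whole-number estimated counts per protein-coding gene, unnormalised, with a mean above 5. How transcripts were summed and rounded, and the strand setting, are not given in the sources used here. Here, genes above a mean of 5 counts in a line were fitted with edgeR 4.0.16 (R 4.3.3): TMM normalization and the two-sided quasi-likelihood test, 12 libraries and 1 coefficient per group in each line, 24 libraries for interactions and for the controls, Benjamini-Hochberg adjustment over all genes, and a threshold of 0.05. Each SE is the absolute log2 fold change divided by the square root of the F statistic of the quasi-likelihood test. The scripts were tested on simulated data. Gene names and positions come from a GRCh38 annotation, in which 1 gene had no entry. A group with 3 or fewer counts in every library counted as not detected.

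Members were named by a rule: values of every library for members that passed with a mean of at least 50 counts over the line's libraries and for the 8 largest changes, and up to 3 genes per pathway list. Any member could be named. One gene of the pathway lists is not reported here. The control comparison and all herbs of a line share libraries. Replicate numbers did not pair the libraries: 0 of 18 same-number pairs correlated above 0.1 in either line. Alternatives were DESeq2 1.42.0, RLE normalization, no filter, only the groups compared, a replicate block, limma 3.58.1 voom with sample weights, GC and length offsets, and leaving out each library.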

Additional observations from a re-analysis of the deposited data

Results flagged for a closer look

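These values stood out because the response to a herb differed between A549 and Huh7 in the interaction test; each is the log2 response in A549 minus that in Huh7, with 3 libraries per group. No group was large enough to test single libraries as outliers. No explanation was weighed.

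With P. chinensis, OAS1 (-1.55), OAS3 (-1.30) and IRF9 (-1.89) had the lower response in A549, and IFI35 (1.03) and DTX3L (0.42) the higher. With B. chinense, OAS1 (-1.46) and OAS3 (-1.19) had the lower response in A549, and IFI35 (1.42) and DTX3L (0.50) the higher. With P. umbellatus, OAS1 (-1.72), OAS3 (-0.78) and ISG20 (-1.22) had the lower response in A549, and IFI35 (2.30), IFIT2 (1.82), IFI6 (1.74), IRF1 (1.07) and DTX3L (0.59) the higher. For OAS1 and OAS3 with P. chinensis each A549 library moved down and each Huh7 library up against the controls. The calls of DTX3L with P. chinensis and of IFIT2 and IFI6 with P. umbellatus were lost in 4, 5 and 5 of the 24 fits that each left out 1 library.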

How the results depend on the processing

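Of 83 called log2 fold changes of members, 68 kept their call under all 7 alternatives that used every library, 15 lost it under at least 1, and 0 changed sign. The counts for A549 against control, for both lines' controls and for the P. chinensis and P. umbellatus interactions stayed within 1.5 times. The others moved as follows, and the cause was not tested. With B. chinense in Huh7, against 0 and 0, the fit of only the groups compared gave 1 up and 2 down, voom 2 and 2, DESeq2 2 down and GC and length offsets 2 down. Over all genes these called 399 higher and 723 lower, 506 and 723, 218 and 297, and 289 and 520, against 72 and 105. With P. umbellatus in Huh7, against 4 up, RLE normalization gave 2, only the groups compared 0, the replicate block 2 and GC and length offsets 1. Over all genes these gave 2439, 513, 2508 and 869 higher, against 2674. Voom gave 9 members for P. chinensis against the other herbs in Huh7, against 5, and 7 for the B. chinense interaction, against 4. Over all genes voom called 2359 higher and 2435 lower in the former, against 1344 and 1674. In the latter it called 1245 and 1238, against 750 and 749. The replicate numbers do not pair the libraries, with 2 of 12 A549 and 5 of 12 Huh7 libraries closest to their own number, and the replicate block moved no other count by over 1.5 times.

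Leaving out 1 library gave, in Huh7, 5 (without control replicate 2) to 11 up and 0 (without control replicate 1) to 2 down with P. chinensis, 0 up and 0 to 2 down (without P. umbellatus replicate 2 or 3) with B. chinense, 0 (without control replicate 2) to 5 up and 1 down with P. umbellatus, and 3 (without P. chinensis replicate 2) to 10 (without P. umbellatus replicate 2) against the other herbs. The B. chinense interaction gave 4 to 7 members (without P. umbellatus replicate 2 of Huh7). Calls over all genes also moved, as for that interaction from 750 higher and 749 lower to 1169 and 1250 in the fit named. In A549 the counts were 6 to 8 up and 2 to 3 down over the herbs. Members with few reads, such as MX1, RSAD2 and IFIT2, limit what could be detected at this depth, and the Huh7 B. chinense and P. umbellatus libraries were shallower than the Huh7 controls.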

Other observations

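Members that lie side by side did not always move together. OAS2 lies 1934 bases past OAS3 on chromosome 12 and was low in A549, at 2.99, 2.26 and 1.44 CPM in the controls and 0.954, 1.84 and 1.39 CPM with P. chinensis, with log2 fold changes of -0.68, -0.33 and -0.31 for the extracts in the order used above that did not pass. In Huh7 with P. chinensis its log2 fold change was -0.44, where OAS1 and OAS3 rose. On chromosome 10, IFIT3 lies between IFIT2 and IFIT1; IFIT2 rose with each herb in A549 while IFIT3 (0.14, -0.02 and 0.01) did not pass. On chromosome 21, MX2 with 0 counts in A549 lies 10626 bases from MX1. The differences between neighbours were not tested.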
